A study of Mus musculus with 11 samples.

Results

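A set of 40 genes of the cell division cycle was followed in kidneys of female mice that carry 2, 1 or no intact copies of Cldn16, the gene for the tight junction protein claudin-16. They are 20 genes of DNA replication, 15 genes of mitosis and 5 genes that control the passage from G1 into S phase, chosen by symbol from the annotation of the array. Of these 40 genes 38 had at least 1 probe, with 86 probes in all out of 45281 on the array. No probe carried the symbol Ccnb1 or Mki67. A probe was tested where its detection p, in which a low value marks a signal above background, lay under 0.05 on at least 3 arrays. This kept 58 probes of 30 genes, so that 8 genes with a probe were not tested. Each tested gene is represented by its probe with the highest mean log2 intensity, and the differences below are of that probe unless another is named. The 15 genes with several tested probes had 28 further ones, whose KO minus WT differences ran from -0.33 to 0.56 log2 units; 12 of the 28 had the opposite sign to the representative probe of their gene.

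The study hybridised renal RNA of 11 mice to Illumina bead arrays, 1 mouse to an array. The groups were 4 Cldn16 +/+ mice (WT), 3 Cldn16 +/- mice (Het) and 4 Cldn16 -/- mice (KO), all 8 weeks old, at postnatal day 58 in 7 mice and 59 in 4, kept on standard food with no treatment named. All had a mixed Sv129 and C57BL/6N background, which the labels give as 129S7/SvEvBrd-Hprtb-m2, F2, with 1 backcross to C57BL/6N. The pieces were whole kidney without the poles, so every value is a mean over all its cells. The labels do not say how the allele was made. The arrays lay on 2 slides, slide 1 with 2 WT, 2 Het and 2 KO and slide 2 with 2 WT, 1 Het and 2 KO.

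In dividing cells, the Mcm2 to Mcm7 proteins form a ring that Cdc6 and Cdt1 load onto DNA in G1 and that opens the helix in S phase. E2F factors, released from the retinoblastoma protein by cyclin-dependent kinases, drive the genes of replication. The genes of mitosis, which the DREAM complex represses in resting cells, rise later, in G2, through the B-Myb-MuvB complex. Both sets are shut in resting cells. Tubule cells of the adult kidney divide rarely and re-enter the cycle after injury, and Cdkn1a (p21), a target of p53, holds them in arrest.

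The promoters of both sets were read for elements through which these factors act, and a few are printed here because they carry the element typical of their set. RefSeq promoter windows (GRCm38.p6), running from 250 bases before to 50 bases after the start of a gene, were found for 35 of the 40 genes; Mcm4, Gins2, Ccna2, Aurkb and Ccnd1 were not matched. An E2F element (TTTCGCGC, TTTGGCGC, TTTCCCGC or TTTGCCGC on either strand) lay in the windows of 9 of 18 replication genes (50%), namely Cdc6, Cdt1, Lig1, Mcm3, Mcm5, Mcm6, Mcm7, Pola1 and Rfc3. It lay in 1 of 13 mitosis genes (7.69%, Cdk1), in 1 of 4 G1 genes (Cdk2) and in 2.60% of all 27025 genes with a window. The cell cycle homology region (CHR, TTTGAA on either strand), through which DREAM binds, lay in 10 of 13 mitosis genes (76.9%), in 2 of 18 replication genes (11.1%, Fen1 and Mcm2), in 0 of 4 G1 genes and in 20.2% of all genes. The NF-Y box (CCAAT on either strand) lay in 12 of 13 mitosis genes (92.3%), 11 of 18 replication genes (61.1%) and 41.1% of all genes. A match is a run of letters and not a measured binding site. Below, capitals mark E2F and CHR elements. In none of these 5 windows did matches of different elements overlap. In Mcm6 and Mcm5 the run of 12 capitals is a pair of E2F matches on opposite strands that share 4 bases.
Mcm6 (chr1:128359656-128359955, minus strand, 3 E2F matches): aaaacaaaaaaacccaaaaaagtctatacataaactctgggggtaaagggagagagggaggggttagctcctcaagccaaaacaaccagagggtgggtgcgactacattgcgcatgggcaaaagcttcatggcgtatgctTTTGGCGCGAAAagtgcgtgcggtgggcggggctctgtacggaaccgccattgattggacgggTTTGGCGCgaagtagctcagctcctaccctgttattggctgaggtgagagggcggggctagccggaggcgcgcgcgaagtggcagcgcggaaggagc
Mcm5 (chr8:75109259-75109558, plus strand, 2 E2F matches): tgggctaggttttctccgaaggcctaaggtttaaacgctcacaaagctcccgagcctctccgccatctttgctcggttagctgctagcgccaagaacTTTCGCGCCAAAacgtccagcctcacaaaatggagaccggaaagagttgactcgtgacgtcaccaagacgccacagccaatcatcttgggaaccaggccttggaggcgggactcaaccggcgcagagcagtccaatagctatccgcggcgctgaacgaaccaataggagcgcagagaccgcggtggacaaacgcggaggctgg
Bub1b (chr2:118597961-118598260, plus strand, 1 CHR match): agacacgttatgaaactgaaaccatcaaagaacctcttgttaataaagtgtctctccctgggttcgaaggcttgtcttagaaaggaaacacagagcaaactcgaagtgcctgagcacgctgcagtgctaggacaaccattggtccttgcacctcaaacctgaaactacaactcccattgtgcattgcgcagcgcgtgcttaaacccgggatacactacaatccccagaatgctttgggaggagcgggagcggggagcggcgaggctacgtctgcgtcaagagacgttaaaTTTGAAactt
Cdc20 (chr4:118437294-118437593, minus strand, 1 CHR match): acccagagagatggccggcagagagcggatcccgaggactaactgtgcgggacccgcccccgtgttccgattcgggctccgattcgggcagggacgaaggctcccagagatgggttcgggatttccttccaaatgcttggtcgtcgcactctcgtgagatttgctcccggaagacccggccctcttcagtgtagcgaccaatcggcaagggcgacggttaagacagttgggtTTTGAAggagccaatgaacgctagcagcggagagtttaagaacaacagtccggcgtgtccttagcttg
Cdk1 (chr10:69352863-69353162, minus strand, 1 E2F and 2 CHR matches): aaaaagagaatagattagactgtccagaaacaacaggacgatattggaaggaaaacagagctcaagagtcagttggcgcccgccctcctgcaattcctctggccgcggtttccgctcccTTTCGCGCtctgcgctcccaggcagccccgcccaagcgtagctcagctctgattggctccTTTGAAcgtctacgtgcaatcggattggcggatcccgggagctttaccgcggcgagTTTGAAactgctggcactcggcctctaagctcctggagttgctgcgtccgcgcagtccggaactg

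**Figure D1:**
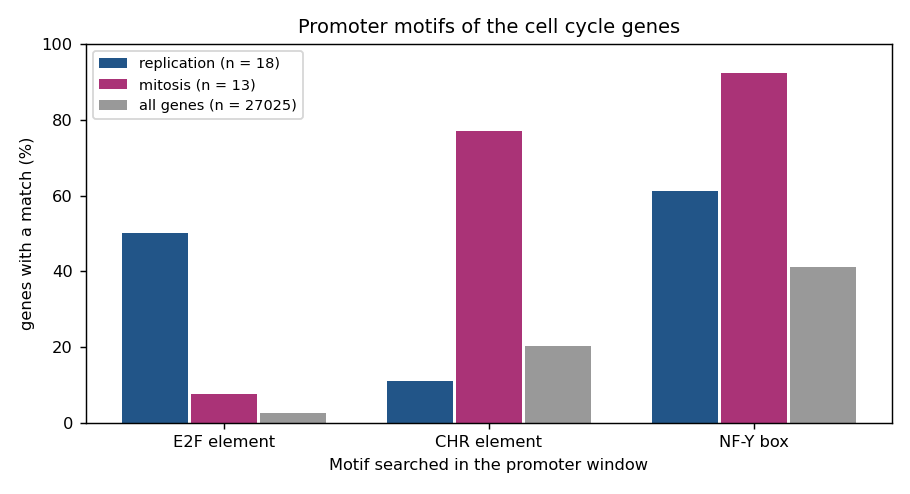
Share of genes (%) whose promoter window holds an E2F element, a CHR element or an NF-Y box, for the replication genes (n = 18), the mitosis genes (n = 13) and all genes with a window (n = 27025). The E2F bar is tallest for replication (50%) and the CHR bar for mitosis (76.9%), against 2.60% and 20.2% of all genes.

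The arrays detected replication genes more often than mitosis genes. A probe with a detection p under 0.01 on all 11 arrays was present for 15 of the 20 replication genes with a probe (75%), for 4 of 13 mitosis genes (30.8%) and for 3 of 5 G1 genes (60%). Those 4 mitosis genes were Cdk1, Cdc20, Bub1b and Cenpa. Of the replication genes Mcm3 and Pola1 were detected at a p under 0.05 on 0 arrays and Rfc3 on 2. Of the mitosis genes Ccna2, Ccnb2 and Bub1 were detected on 0 arrays and Ube2c on 1, and the G1 cyclin Ccne1 on 2. The replication genes had 47 probes and the mitosis genes 25, and no such share was taken over all genes. Whether either set was detected unusually often is therefore not known. Probes differ in how well they bind, so levels of different genes were not set against each other.

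The whole series frames these values as follows. Arrays had 18854 to 19742 probes at a detection p under 0.01 and correlated at 0.981 to 0.991 over the tested probes. The Cldn16 probe differed by -0.53 ± 0.16 log2 units (SE) between KO and WT (adjusted p = 0.227), and no source used here gives the part of the gene it covers. Of 12 kidney markers 10 were tested, and all 10 had a detection p under 0.01 on every array; their mean deviation from the WT mean ran from -0.04 to 0.04 in WT, from -0.06 to 0.06 in Het and from 0.14 to 0.38 in KO, so that all 4 KO kidneys lay above WT. Of 13 adipose tissue genes 8 were tested, and the same mean ran from -0.58 to 0.28 in WT, from -0.86 to 1.60 in Het and from -0.20 to 1.70 in KO, highest in KO 1 (1.70), Het 3 (1.60) and KO 4 (1.35); Fabp4, Retn and Elovl3 were not tested for want of detection. Of 14 myeloid genes 10 were tested, and they ran from -0.12 to 0.09 in WT, -0.27 to -0.03 in Het and -0.37 to -0.12 in KO. Of 16 T and B lymphocyte genes 5 were tested, and they ran from -0.02 to 0.06 in WT, -0.13 to 0.01 in Het and -0.20 to -0.03 in KO. Of 11 erythroid and blood genes 5 were tested, and they ran from -0.59 to 0.47 in WT, -0.51 to 0.14 in Het and -1.06 to 0.07 in KO, lowest in KO 2 (-1.04) and KO 3 (-1.06). The part of these lists in any cell cycle value was not tested.

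KO was set against WT to learn whether losing both Cldn16 copies alters these genes. None of the 58 probes passed an adjusted p of 0.05 in limma, where 9 of all 22856 tested probes did (0.0394%). At an unadjusted p under 0.05 there were 5 of 58 probes (8.62%), against 12.9% of all tested probes. The 4 KO values lay wholly above or wholly below the 4 WT values in 4 of 58 probes (6.9%), against 7.13% of all. Neither share exceeded that of all probes. Over the genes, the median KO minus WT difference was -0.04 log2 units for replication (6 of 17 higher), -0.00399 for mitosis (4 of 9 higher) and -0.04 for G1 control (1 of 4 higher). Over all 12179 genes it was 0.00235, with 50.5% higher. The replication differences ran from -0.28 (Rfc5) to 0.44 (Rrm1) and the mitosis differences from -0.23 (Birc5) to 0.12 (Top2a). With a median shift per array in place of quantile normalization, which moved the median over all tested probes to 0.11, the medians of replication and mitosis were 0.11 and 0.10.

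**Figure D2:**
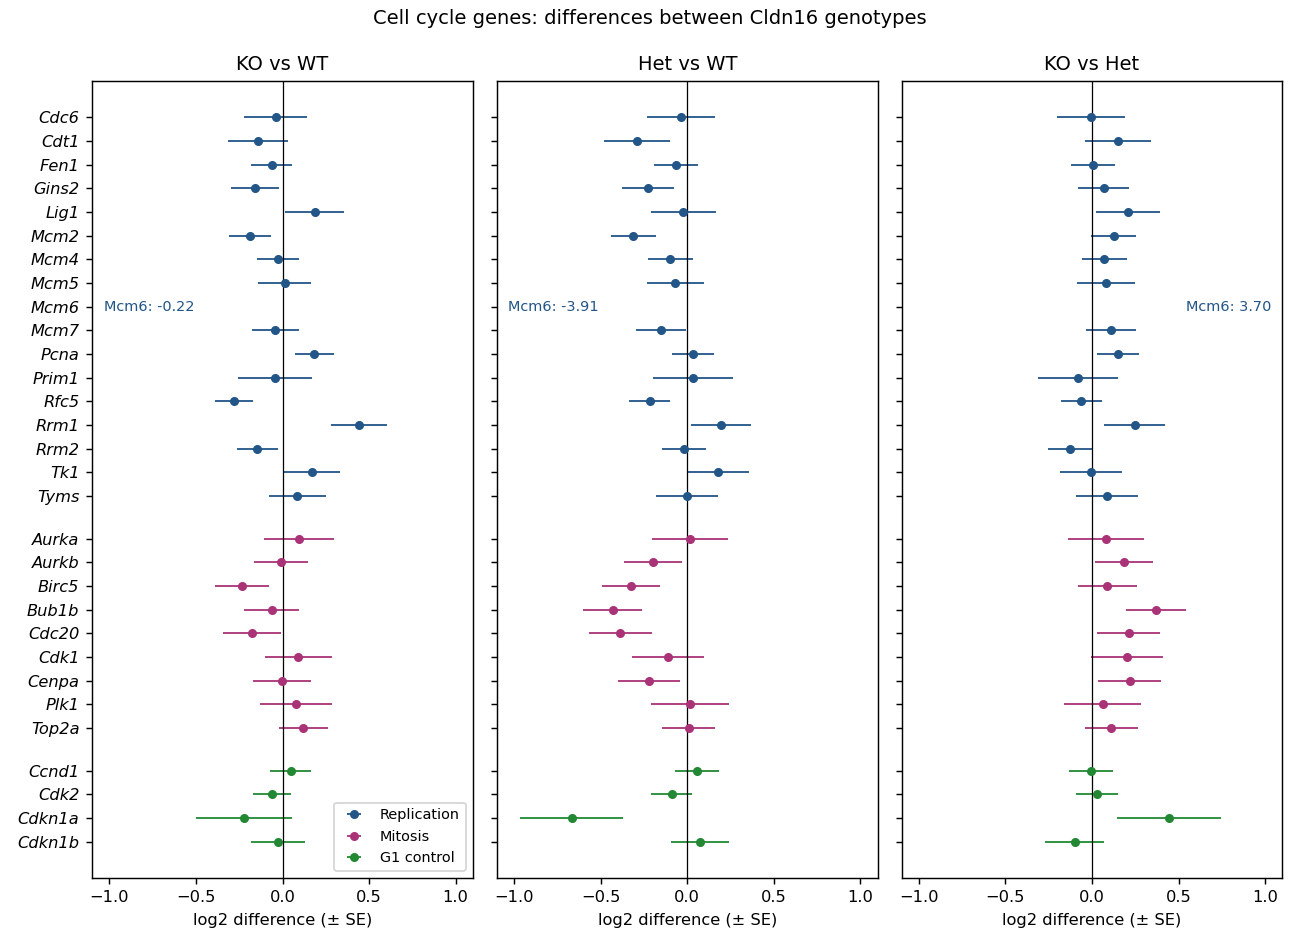
Log2 differences (± SE of the linear model) between genotypes for the 30 tested genes, a row per gene, coloured by role; n = 4 WT, 3 Het and 4 KO kidneys. Mcm6 lies outside the axis or has an SE wider than it and is written as a number; in the KO vs Het panel all 9 mitosis genes lie above 0, and in the other panels points lie on both sides.

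Among the genes that license origins and open the helix, KO and WT overlapped in every case. Mcm2, a subunit of the helicase ring, differed by -0.19 ± 0.12, Mcm4 by -0.03 ± 0.12, Mcm5 by 0.01 ± 0.15 and Mcm7 by -0.04 ± 0.14. A dim second probe of Mcm7, ILMN_2673889, differed by -0.26 ± 0.17. Its detection p was under 0.01 on 2 arrays, both WT, and under 0.05 on 3, the fewest that the filter allowed. It was thus kept in part through WT arrays where it was high. Mcm4 lies on chromosome 16 as Cldn16 does, and its WT values (9.69 to 9.84) lay inside its KO values (9.61 to 9.97). The loaders Cdc6 and Cdt1 differed by -0.04 ± 0.18 and -0.14 ± 0.17. Gins2, part of the complex that joins the ring to make it active, differed by -0.16 ± 0.14. Adjusted p-values of these 7 genes ran from 0.532 to 0.982.

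Mcm6, the subunit on chromosome 1, stood apart from the other ring subunits because its arrays fell at 2 levels inside WT and inside KO. The log2 intensity of its probe ILMN_1217331 was 4.31, 9.06, 9.65 and 9.93 in WT 1 to WT 4, 4.36, 4.36 and 4.26 in Het 1 to Het 3, and 4.36, 8.90, 9.72 and 9.10 in KO 1 to KO 4. WT 1, KO 1 and all 3 Het kidneys were low, and the other 3 WT and 3 KO kidneys were high. As deposited, before any normalization, the intensity was 57.3 in WT 1 and 59.5 in KO 1, 58.4, 60.2 and 49.7 in the Het kidneys, 546, 696 and 904 in the other WT and 577, 918 and 582 in the other KO kidneys. The low kidneys had detection p-values from 0.666 to 0.962, so their signal was not above background, and the high kidneys had 0.

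A pair of further Mcm6 probes placed the same 5 kidneys low and the same 6 high, though not in the same order. ILMN_2803399 read 5.93, 7.69, 8.16 and 8.48 in WT, 5.89, 5.57 and 5.44 in Het and 5.75, 8.04, 8.48 and 8.03 in KO. ILMN_1233857 read 5.30, 7.29, 7.70 and 7.84 in WT, 4.96, 5.30 and 4.80 in Het and 5.09, 7.26, 7.56 and 7.41 in KO. On ILMN_2803399 the low kidneys were still detected, with a detection value of 0 on every array, so that probe registered Mcm6-labelled signal in all mice, at a lower level in the same 5. The 4th probe, ILMN_1236125, was not detected on any array.

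Over all arrays the highest minus the lowest value was 5.67 log2 units for Mcm6, against 0.59 for Mcm2, 0.52 for Mcm4, 0.66 for Mcm5 and 0.70 for Mcm7. The SD within genotypes was 2.21 for ILMN_1217331, on which WT 1 and KO 1 were at background, 1.04 for ILMN_2803399 and 1.02 for ILMN_1233857. These ranked 5, 103 and 107 among 22856 tested probes, whose median was 0.20. Its KO minus WT difference was accordingly -0.22 ± 1.22 (adjusted p = 0.958), and leaving out 1 kidney carried it from -1.52 (without WT 1) to 1.00 (without KO 1). In WT 1, Mcm4 read 9.82 and Mcm5 7.94, each inside the range of the other 3 WT kidneys. Mcm2 was lowest of WT in WT 1 (6.65), and all 3 Het kidneys lay below WT, within its far smaller range.

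**Figure D3:**
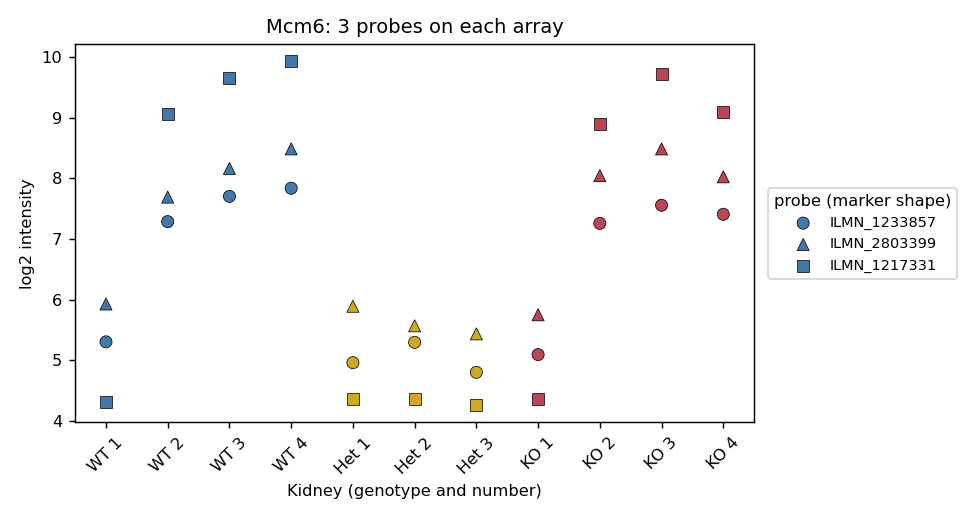
Log2 intensity of the 3 tested Mcm6 probes (marker shape) on each of the 11 arrays, coloured by genotype (blue WT, yellow Het, red KO). On each probe WT 1, the 3 Het kidneys and KO 1 sit at the low level and WT 2 to 4 and KO 2 to 4 at the high level.

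Of the enzymes that supply nucleotides, Rrm1 had the smallest unadjusted p of all replication genes in KO against WT. Rrm1 encodes the large subunit of ribonucleotide reductase, which makes deoxyribonucleotides. Its probe ILMN_2977624 read 6.86, 7.20, 7.31 and 7.36 in WT, 7.54, 7.65 and 6.93 in Het and 7.73, 7.70, 7.62 and 7.43 in KO. All 4 KO kidneys lay above all 4 WT kidneys, and Het 3 lay with WT while Het 1 and Het 2 lay with KO. The difference was 0.44 ± 0.16 (1.36-fold; unadjusted p = 0.0177, adjusted p = 0.29 in limma). Its other tested probe, ILMN_1258715, gave 0.03 ± 0.19, and its WT values (5.73 to 6.59) overlapped those in KO (5.83 to 6.50). On slide 1 alone the 2 probes differed by 0.69 and -0.30, and on slide 2 alone by 0.19 and 0.35.

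The other enzymes of nucleotide supply differed by about 1 SE or less on their brightest probes. Rrm2, the small subunit of the reductase that is made in S phase, differed by -0.14 ± 0.12, and by 0.14 ± 0.20 on its dimmer probe ILMN_2714565. Tk1, the S-phase thymidine kinase, differed by 0.17 ± 0.17. Tyms, thymidylate synthase, differed by 0.09 ± 0.17 on its brightest probe, ILMN_2484707, where WT (8.84 to 9.31) and KO (8.86 to 9.52) overlapped. Another of its probes, ILMN_1247173, singled out after its values were seen, read 6.41, 6.38, 6.57 and 6.12 in WT, 6.69, 6.48 and 5.94 in Het and 6.84, 6.66, 7.0 and 6.95 in KO. There all KO kidneys lay above all WT kidneys (0.49 ± 0.16, unadjusted p = 0.00805, adjusted p = 0.246 in limma). Its other 3 tested probes differed by -0.08 to 0.06.

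Of the genes of the replication fork, Rfc5 had the smallest unadjusted p in KO against WT. It encodes a subunit of replication factor C, the clamp loader that sets PCNA on DNA. Its probe ILMN_2637203 read 7.97, 8.08, 7.82 and 7.98 in WT, 7.60, 7.93 and 7.71 in Het and 7.81, 7.58, 7.69 and 7.66 in KO. All 4 KO kidneys lay below the 4 WT kidneys, although WT 3 and KO 1 nearly touched. The difference was -0.28 ± 0.11 (0.824-fold; unadjusted p = 0.0232, adjusted p = 0.313 in limma), with -0.33 on slide 1 and -0.23 on slide 2. The weaker probe ILMN_2550370, which had a detection p under 0.01 on 5 arrays, differed by -0.07 ± 0.16.

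Pcna, the sliding clamp of the DNA polymerases, read 6.81, 6.77, 6.51 and 6.53 in WT, 6.85, 6.70 and 6.52 in Het and 6.76, 6.93, 6.87 and 6.79 in KO. The groups overlapped, and KO minus WT was 0.18 ± 0.11 (adjusted p = 0.511). Prim1, the primase that starts each new strand, read 5.04, 5.11, 5.94 and 5.08 in WT, 5.37, 5.66 and 4.94 in Het and 5.24, 5.57, 5.23 and 4.95 in KO. WT 3 was its highest kidney, and KO minus WT was -0.05 ± 0.21. Lig1, the ligase that joins Okazaki fragments, differed by 0.19 ± 0.17 and Fen1, the flap nuclease that trims them, by -0.06 ± 0.12.

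**Figure D4:**
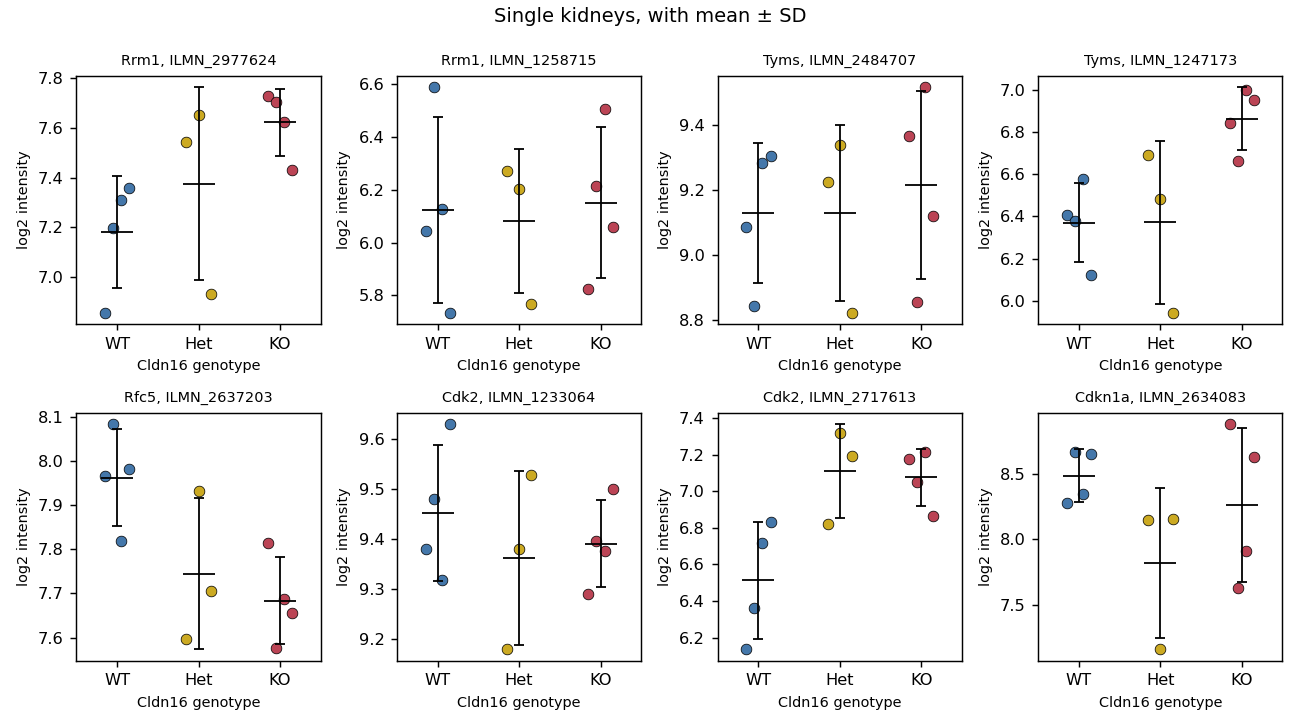
Log2 intensity of single kidneys (points) with the genotype mean ± SD (bars) for 8 probes of Rrm1, Tyms, Rfc5, Cdk2 and Cdkn1a; n = 4 WT, 3 Het and 4 KO. All KO points lie above all WT points for Rrm1 ILMN_2977624, Tyms ILMN_1247173 and Cdk2 ILMN_2717613, but not for the other probe of each gene shown here.

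None of the 9 tested mitosis genes overshot its spread in KO against WT (adjusted p from 0.551 upward). Birc5 (survivin, part of the chromosomal passenger complex) read 5.58, 5.62, 5.64 and 6.08 in WT, 5.62, 5.57 and 5.04 in Het and 5.70, 5.47, 5.33 and 5.50 in KO. WT 4 was high, and the groups overlapped (-0.23 ± 0.16, adjusted p = 0.551). Cdc20, the activator of the anaphase-promoting complex, read 6.71, 6.57, 6.58 and 7.24 in WT, 6.43, 6.38 and 6.36 in Het and 6.90, 6.38, 6.78 and 6.34 in KO. KO and WT overlapped (-0.17 ± 0.17), while all 3 Het kidneys lay below all WT kidneys. On its next brightest probe, ILMN_2698767, Het (5.18 to 5.56) and WT (5.53 to 5.79) overlapped.

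Top2a, the topoisomerase that untangles chromosomes, read 5.06, 4.85, 5.30 and 5.21 in WT, 5.11, 4.94 and 5.29 in Het and 4.89, 5.26, 5.40 and 5.35 in KO, with a KO minus WT difference of 0.12 ± 0.14. The kinases Cdk1, Plk1, Aurka and Aurkb, which drive entry into mitosis and the spindle, differed by 0.09 ± 0.19, 0.08 ± 0.21, 0.09 ± 0.20 and -0.01 ± 0.15. Cenpa, the histone of the centromere, differed by -0.00399 ± 0.17. Aurka, Cdk1, Aurkb and Cenpa were all highest in WT 4 and, within WT, lowest in WT 3. A dim second probe of Cdk1, ILMN_2698252, differed by -0.33 ± 0.15 between KO and WT (unadjusted p = 0.042, adjusted p = 0.371 in limma). Its detection p was under 0.01 on 2 arrays, both WT, and under 0.05 on 3, the fewest that the filter allowed. The probe was thus kept in part through WT arrays where it was high, so its difference is not independent of the filter.

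Het against WT asks what the loss of 1 copy does, and KO against Het what the loss of the remaining copy does. The 3 Het kidneys enter both comparisons. No probe of the 58 passed the adjusted threshold in either, nor did any tested probe in the series (0%). In Het against WT 7 of 58 probes (12.1%) had an unadjusted p under 0.05, against 6.75% of all tested probes, and in KO against Het 5 of 58 (8.62%), against 5.43%. In each, 3 of the probes were those of Mcm6. Groups that did not overlap were found for 5 probes in Het against WT (8.62%, against 6.72% of all) and for 3 in KO against Het (5.17%, against 6.19%).

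For Mcm6, Het minus WT was -3.91 ± 1.32 (unadjusted p = 0.0108, adjusted p = 0.663 in limma), and KO minus Het was 3.70 ± 1.32 (adjusted p = 0.889). Since the 3 Het kidneys were not above background on ILMN_1217331, they entered the fold at the background limit. By the means, WT was then 8.77-fold and KO 7.55-fold higher than Het. WT 1 and KO 1, at the Het level, entered with their own values, so these folds are not strict bounds and average over 2 levels. On ILMN_2803399 the differences were -1.93 ± 0.62 and 1.94 ± 0.62, and on ILMN_1233857 they were -2.01 ± 0.61 and 1.81 ± 0.61. Only slide 2, which holds neither WT 1 nor KO 1, gave a call on its own: -5.53 in Het against WT (adjusted p = 0.00472) and 5.15 in KO against Het (adjusted p = 0.00783). Those rest on 1 Het kidney, assumed to vary like the other genotypes. On slide 1 alone the differences were -2.33 and 2.27 (adjusted p = 0.780 and 0.954).

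On their brightest probes the mitosis genes were lower in Het than in KO in all 9 cases. The median KO minus Het was 0.19 log2 units, with a range from 0.06 (Plk1) to 0.37 (Bub1b). The median was 0.0869 with no background correction, 0.0878 with an offset of 50 and 0.0871 in the authors' processed values, with 9 of 9 higher in each. With the mean over a gene's tested probes, 8 of 9 were higher (median 0.11). Further probes were lower in KO for Cdk1 (-0.15), Cdc20 (-0.05) and Birc5 (-0.12 and -0.10). Others were higher, for Cdc20 (0.21 and 0.05) and Bub1b (0.13). No single gene passed the threshold (adjusted p from 0.912 upward), and all 9 share the same 3 Het kidneys. Over all genes the median was 0.00915, with 52.4% higher in KO. Replication genes had a median of 0.08, with 12 of 17 higher. Of 35 further replication genes, described below, 14 were higher and 21 lower (median -0.03). Against WT, the Het median was -0.20 for mitosis (3 of 9 higher), -0.07 for replication (4 of 17 higher) and -0.00827 for all genes. The mitosis median of Het minus WT was -0.0820 without Het 3, -0.0579 on slide 1 alone, -0.40 on slide 2 alone and -0.0901 in the authors' processed values. In tissue RNA, fewer cells in cycle and less RNA per cell cannot be told apart.

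The count of 9 of 9 depended on Het 3, the only Het kidney of slide 2. Without KO 2 or without KO 3 it was 8 of 9. Without Het 3, 6 of 9 mitosis genes were higher in KO than in Het (median 0.10). On slide 1 alone 5 of 9 were (median 0.02), and on slide 2 alone 9 of 9 (median 0.38). Het 3 was also among the kidneys with high adipose genes; without KO 1, KO 4 and Het 3, a set chosen after the data were seen, 7 of 9 mitosis genes were higher in KO (median 0.18). The part of adipose RNA in the result was not tested.

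Averaged over the 9 mitosis genes, the deviation from the WT mean was 0.06, -0.09, -0.22 and 0.25 in WT 1 to WT 4, 0.04, -0.25 and -0.34 in Het 1 to Het 3, and -0.11, 0.00356, 0.12 and -0.06 in KO 1 to KO 4. WT kidneys alone spanned most of this range, and the 3 genotypes overlapped. Averaged over the 17 replication genes, it was -0.32, 0.11, 0.07 and 0.15 in WT, -0.31, -0.19 and -0.39 in Het and -0.28, 0.09, 0.11 and 0.02 in KO. Without Mcm6, a step added after seeing the data, it was -0.10, 0.06, -0.01 and 0.05 in WT, -0.08, 0.04 and -0.16 in Het and -0.05, 0.05, 0.03 and -0.04 in KO. Since Mcm6 was low in WT 1, KO 1 and the Het kidneys, leaving it out had to bring them nearer to the others. Without it WT 1 was still the lowest WT kidney, KO 1 the lowest KO kidney and Het 3 the lowest of all.

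**Figure D5:**
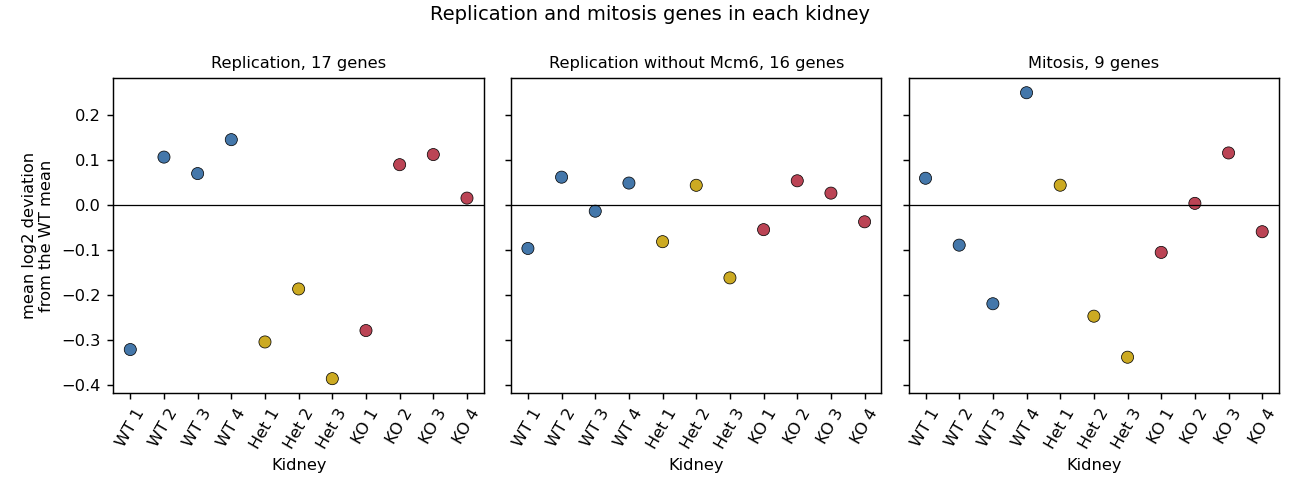
Mean log2 deviation from the WT mean in each kidney for the 17 replication genes, the same without Mcm6 (16 genes) and the 9 mitosis genes, coloured by genotype (blue WT, yellow Het, red KO). Without Mcm6 the replication points draw together between -0.16 and 0.06, while the mitosis points run from -0.34 (Het 3) to 0.25 (WT 4).

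Bub1b, the spindle checkpoint kinase BubR1, had the smallest p of the mitosis genes in Het. It read 6.35, 6.22, 6.34 and 6.34 in WT, 6.32, 5.56 and 5.76 in Het and 5.96, 6.26, 6.53 and 6.25 in KO. Het 2 and Het 3 were low and Het 1 lay with WT. Het minus WT was -0.43 ± 0.17 (unadjusted p = 0.0258, adjusted p = 0.716 in limma), and KO minus Het was 0.37 ± 0.17 (adjusted p = 0.912). The dimmer probe ILMN_2985969 gave -0.07 ± 0.20 and 0.13 ± 0.20. Among replication genes Mcm2 read 6.65, 6.96, 6.72 and 6.90 in WT, 6.62, 6.38 and 6.50 in Het and 6.56, 6.40, 6.76 and 6.78 in KO. All 3 Het kidneys lay below all WT kidneys (-0.31 ± 0.13, unadjusted p = 0.0313, adjusted p = 0.718), with -0.31 on each slide.

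Het was also set against the point midway between WT and KO, where a graded effect of the copies would place it. No probe of the 58 passed the threshold, as in the series (0%), and 5 of 58 (8.62%) had an unadjusted p under 0.05, against 4.18% of all tested probes. These were the 3 Mcm6 probes, Bub1b (-0.40) and the dim Cdkn1a probe ILMN_2846776 (-0.49), whose Het kidneys were all below background. The brightest Cdkn1a probe gave -0.56 ± 0.26 (unadjusted p = 0.0554 in limma) and ILMN_2846775 gave -0.17 ± 0.27. All 9 mitosis genes lay below the midpoint (median -0.19), as did 14 of 17 replication genes (median -0.07). Over all 12179 genes 47.8% lay above it (median -0.00788). The contrast combines Het against WT with KO against Het on the same 3 Het kidneys. Its counts therefore repeat the earlier ones and add no separate evidence.

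Of the genes at the entry to S phase, Ccnd1 and Cdk2 differed little on their brightest probes. Ccnd1 (cyclin D1, which responds to growth signals) read 12.98, 13.08, 12.80 and 12.86 in WT, 12.98, 12.85 and 13.12 in Het and 13.10, 12.71, 13.03 and 13.07 in KO, and its 3 tested probes gave KO minus WT differences of -0.08, 0.05 and 0.18. Cdk2, the partner of cyclin E, read 9.38, 9.48, 9.32 and 9.63 in WT, 9.18, 9.38 and 9.53 in Het and 9.29, 9.40, 9.38 and 9.50 in KO on probe ILMN_1233064 (-0.06 ± 0.11). Its probe ILMN_2717613, singled out after its values were seen, read 6.14, 6.36, 6.72 and 6.83 in WT, 6.82, 7.32 and 7.19 in Het and 7.17, 7.05, 7.21 and 6.86 in KO. There both KO (0.56 ± 0.16, unadjusted p = 0.00425, adjusted p = 0.211) and Het (0.60 ± 0.18, adjusted p = 0.661) were higher than WT. The KO kidneys lay above all WT kidneys, and WT 4 reached the lowest Het kidney. The other 2 tested Cdk2 probes differed by 0.02 and 0.22 between KO and WT.

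After Mcm6, Cdkn1a had the widest range over the 11 arrays (1.73 log2 units). Its probe ILMN_2634083 read 8.28, 8.67, 8.35 and 8.65 in WT, 8.15, 7.16 and 8.15 in Het and 8.88, 7.63, 7.91 and 8.63 in KO. All Het kidneys lay below all WT kidneys (-0.67 ± 0.30, unadjusted p = 0.0432, adjusted p = 0.732 in limma), while KO 1 and KO 4 were high and KO 2 and KO 3 low. On ILMN_2846775 Het (5.55 to 6.32) and WT (6.04 to 6.33) overlapped (-0.19 ± 0.30). On the dim probe ILMN_2846776 Het (4.62 to 4.76) and WT (4.75 to 5.31) also overlapped (-0.41 ± 0.20). KO minus WT was -0.22 ± 0.28 on ILMN_2634083. KO 1 and KO 4 were 2 of the 3 kidneys with high adipose genes. Without KO 1, KO 4 and Het 3 the KO minus WT difference was -0.72 on ILMN_2634083 and -0.66 on ILMN_2846775, against -0.05 with all arrays on the latter. ILMN_2846776 gave 0.17 ± 0.18 with all arrays and -0.17 without those 3. On all 3 probes KO 1 and KO 4 were the 2 highest KO kidneys. Leaving them out therefore lowers the KO mean by itself and leaves KO 2 and KO 3 alone, so these values cannot decide on adipose RNA. KO 2 and KO 3 were also the KO kidneys lowest in erythroid genes. Whether adipose or blood RNA had a part was not tested. Cdkn1b (p27), the inhibitor of cyclin E with Cdk2, differed by -0.03 ± 0.16.

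The wider pathway was read from lists of genes beyond the 40, by counts. Of 35 tested further replication genes 12 were higher and 23 lower in KO than in WT (median -0.03), with 0 called by limma and 3 at an unadjusted p under 0.05. Over all genes 1549 of 12179 were under that p, and 50.5% were higher. Prim2, the large primase subunit, differed by -0.43 ± 0.11, from 6.26 ± 0.13 (SD) in WT to 5.83 ± 0.18 in KO (adjusted p = 0.196). Mcm10 differed by -0.31 ± 0.14 and Gins3 by 0.37 ± 0.17. Of 34 tested further mitosis genes 8 were higher and 26 lower (median -0.06), with 0 called and 2 at an unadjusted p under 0.05. Without WT 4, 18 of the 34 were higher (median 0.011), and with a median shift per array 19 were (median 0.0158, against 0.11 over all tested probes). Of the 34, Smc2, a condensin ATPase, differed by -0.39 ± 0.12 (adjusted p = 0.241) and Kntc1 by -0.40 ± 0.16; Spc24, a kinetochore protein, differed by -0.24 ± 0.13. In KO against Het 27 of these 34 were higher (median 0.11), and 20 of 34 without Het 3 (median 0.04). Of the 35 further replication genes 14 were higher and 21 lower in KO than in Het (median -0.03). In Het against WT 17 of those 35 were higher and 18 lower (median -0.00219). Of the 34 further mitosis genes 5 were higher and 29 lower in Het than in WT (median -0.15). Over all genes 47.9% were higher. Without Het 3, 9 of the 34 were higher (median -0.12), and on slide 1 alone 12 were (median -0.095). All 34 share the same Het kidneys.

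Of 25 tested further genes of G1, of the RB and E2F families and of kinase inhibitors, 16 were higher in KO than in WT (median 0.05), 0 were called and 3 had an unadjusted p under 0.05. These were Rbl2 (p130, a pocket protein of DREAM, 0.39 ± 0.11, adjusted p = 0.211), E2f4, which binds such pocket proteins (0.33 ± 0.14), and Cdc25a, the phosphatase that activates Cdk2 (0.26 ± 0.11). Of 22 tested p53 target genes 10 were higher (median -0.03), 0 were called and 2 had an unadjusted p under 0.05. Over all genes 1549 of 12179 were under that p and 50.5% were higher. The genes named here are those with the smallest p of each list and were not set apart from that share. Ccng1, cyclin G1, read 11.07 ± 0.14 in WT and 11.53 ± 0.17 in KO (0.47 ± 0.12, adjusted p = 0.19). Zmat3 differed by 0.35 ± 0.15 and Trp53inp1 by 0.22 ± 0.12. Of 12 tested genes of tubule injury and regeneration, among which dividing tubule cells could be looked for, 6 were higher and 6 lower in KO, 0 were called, and Lcn2 (-0.87 ± 0.25), Timp1 (-0.58 ± 0.17) and Vcam1 (-0.47 ± 0.16) had the smallest p (adjusted p = 0.211, 0.219 and 0.266).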

How the data were processed

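Per the file headers, the authors deposited a linear intensity (mean bead signal) and a detection p-value per probe and array; the submitters' processing notes name BeadStudio, and its settings are not stated. Intensities were background-corrected with normexp, with negative controls inferred from the detection p-values and an offset of 16, quantile normalized, and log2-transformed. This offset shrinks the differences of dim probes. A linear model with a mean per genotype over all 11 arrays (limma 3.58.1, lmFit and eBayes, R 4.3.3) was fitted to the 22856 probes that reached a detection p below 0.05 on 3 or more arrays. P-values are two-sided, Benjamini-Hochberg adjusted over all of these at a threshold of 0.05. Below background means a detection p of 0.01 or more on every array of a group. For a group below background a fold is a lower bound: each of its arrays enters with the probe's own value or, if that is lower, with the dimmest value that still reached a detection p below 0.01. Arrays of the brighter group enter with their own values. Where some of them are at background, as for Mcm6, the fold is not a strict bound. A second deposited table of the authors' processed intensities, which quantile normalization without background correction matched within a median of 0.00392 units, served as an alternative.

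All members are named. A member was given in every array where it was past the threshold, among the 3 smallest unadjusted p in KO against WT or the smallest in Het against WT or KO against Het in its role, or among the 3 with the widest spread within genotypes. Of each further list, the 3 genes with the smallest p in KO against WT were named. The members and lists were chosen with earlier results of these data known. Nothing pairs the mice, and the labels list each as a separate animal; the number of arrays limits the precision. The model was tested on simulated shifts. Gene and probe names come from the platform annotation, and promoter sequences from RefSeq (GRCm38.p6).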

Additional observations from a re-analysis of the deposited data

Results flagged for a closer look

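In 10 of 60 genotype groups of 4 kidneys, 1 kidney stood apart from the other 3 by Dixon's criterion. The nominal share of 0.05 gives about 3 for independent groups, but these groups reuse the same WT and KO kidneys. The share over all tested probes was not counted, so the 10 cannot be read as a trait of these genes. On the representative probe the 10 began, on the log2 scale, with Mcm6 in WT 1 (4.31, the others 9.06 to 9.93) and in KO 1 (4.36, the others 8.90 to 9.72), described above. WT 1 was also low for Cdc6 (4.93, the others 5.70 to 5.84). KO 1 was high for Gins2 (5.96, the others 5.50 to 5.57) and low for Aurkb (4.85, the others 5.13 to 5.18). WT 2 was low for Bub1b (6.22, the others 6.34 to 6.35) and high for Cdkn1b (5.48, the others 4.90 to 4.98). WT 3 was high for Prim1 (5.94, the others 5.04 to 5.11), WT 4 for Birc5 (6.08, the others 5.58 to 5.64) and KO 3 for Cenpa (8.81, the others 8.31 to 8.36).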

How the results depend on the processing

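Under 25 alternatives (background correction, offset, normalization, probe filter, probe choice, slide, postnatal day, arrays in the fit), KO minus WT kept its sign throughout in 11 of 30 genes, among them Rrm1, Rfc5, Pcna, Mcm2 and Cdkn1a, and turned in some in the other 19, all of them uncalled; the cause was not tested. Member calls arose on slide 2 alone, with the 3 Mcm6 probes in Het against WT, in KO against Het and in the departure from the midpoint, where 1 Het kidney stands for its genotype; there the mitosis medians were -0.40 (Het minus WT) and 0.38 (KO minus Het). With a median shift per array, which raised the median of all probes in KO against WT to 0.11, the turned values were Mcm4 0.12, Mcm7 0.11, Cdc6 0.052, Cdt1 0.041, Prim1 0.030, Fen1 0.12, Aurkb 0.00408, Bub1b 0.065, Cenpa 0.18, Cdk2 0.10. With postnatal day as a covariate they were Aurkb 0.00743, Cenpa 0.000151, Cdkn1b 0.011. On slide 1 alone they were Mcm5 -0.32, Mcm7 0.065, Cdc6 0.16, Prim1 0.33, Fen1 0.078, Cdc20 0.00127, Plk1 -0.18, Aurka -0.013, Ccnd1 -0.12. On slide 2 alone they were Mcm4 0.095, Aurkb 0.12, Bub1b 0.049, Cenpa 0.074, Cdkn1b 0.22. With the mean over a gene's probes they were Cdk1 -0.12, Cdk2 0.18. Without the 3 arrays highest in adipose genes, added with the data in view, they were Mcm5 -0.037, Mcm6 1.07, Cdc6 0.13, Cdt1 0.021, Prim1 0.11, Aurkb 0.077, Bub1b 0.082, Cenpa 0.12, Ccnd1 -0.059. Leaving out 1 kidney at a time gave Aurka -0.14 to 0.26, Aurkb -0.13 to 0.076, Bub1b -0.15 to 0.035, Cdc6 -0.25 to 0.055, Cdk1 -0.058 to 0.31, Cdkn1b -0.12 to 0.11, Cenpa -0.12 to 0.12, Fen1 -0.10 to 0.022, Mcm4 -0.098 to 0.021, Mcm5 -0.11 to 0.084, Mcm6 -1.52 to 1.00, Mcm7 -0.12 to 0.057, Plk1 -0.080 to 0.19, Prim1 -0.15 to 0.17, Tyms -0.015 to 0.21. The median KO minus WT ran from -0.13 to 0.11 for replication and from -0.11 to 0.10 for mitosis. No paired analysis was possible because the labels number no replicates across genotypes. Depth on arrays is signal over background: 8 genes with a probe, 4 of them of mitosis, were too dim to test, and 4 of 13 mitosis genes were clearly detected on every array, so small changes in dividing cells may lie under the limit of these arrays.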

Other observations

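Genes next to Mcm6 on chromosome 1 ran over far smaller ranges than Mcm6, though some of them also differed between Het and WT before adjustment. Of the 6 protein-coding neighbours on each side, 5 had a tested probe. Rab3gap1, a subunit of a GTPase-activating protein for Rab3, ran from 11.33 to 11.63 log2 units over the 11 kidneys. R3hdm1 ran from 9.92 to 10.16. Zranb3, a DNA annealing enzyme of stalled replication forks, read 7.90, 8.01, 7.94 and 7.96 in WT, 7.82, 7.64 and 7.56 in Het and 7.77, 7.82, 7.91 and 7.92 in KO. Its 3 Het kidneys lay below its WT kidneys (Het minus WT -0.28, unadjusted p = 0.0176, adjusted p = 0.696 in limma). WT 1 and KO 1 were each the lowest of their genotype, by 0.05, as on Mcm6, whose WT 1 and KO 1 were also low, though Zranb3 differences were far smaller. The chemokine receptor gene Cxcr4 read 5.39, 5.11, 5.10 and 5.44 in WT, 6.00, 6.41 and 5.53 in Het and 6.10, 6.60, 5.40 and 5.93 in KO (Het minus WT 0.72, unadjusted p = 0.0123, adjusted p = 0.681 in limma). Cd55, which restrains complement, read 8.36, 8.27, 7.77 and 8.22 in WT, 7.86, 7.27 and 7.56 in Het and 7.73, 7.93, 8.12 and 8.04 in KO (Het minus WT -0.59, unadjusted p = 0.00407, adjusted p = 0.661 in limma). Zranb3, Cxcr4 and Cd55 thus had an unadjusted p under 0.05 in Het against WT, as had 6.75% of all tested probes. Zranb3 and Cd55 were lower in Het and Cxcr4 was higher. For Rab3gap1, R3hdm1, Cxcr4 and Cd55, WT 1 and KO 1 were not both the lowest of their genotype. The neighbours were chosen by position and the resemblance was seen afterwards; it was not tested.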
